A study of Mus musculus with 14 samples.

Results

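The mRNA of 8 carriers from the Slc1a and Slc25a families, among them those of aspartate and glutamate, was followed here in spheroids of 4T1 cells, a mouse line of triple-negative breast cancer. The members were chosen by gene symbol: the plasma membrane carriers *Slc1a1*, *Slc1a2*, *Slc1a3*, *Slc1a4* and *Slc1a5*, and the mitochondrial carriers *Slc25a12*, *Slc25a13* and *Slc25a22*. Of these 8 genes, 6 had a row among the 19525 genes of the count table, and 5 had more than a handful of reads. *Slc1a1* and *Slc1a3* were not analysed here.

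The study asked how aspartate in lung interstitial fluid acts on cancer cells through the NMDA receptor subunit GRIN2D and through hypusination, the modification of the translation factor eIF5A that deoxyhypusine synthase (DHPS) begins. All 14 libraries came from spheroids kept for 5 days in a medium that mimics lung interstitial fluid, and all cells carried a lentiviral hairpin as polyclonal, puromycin-selected lines. ASP shSCR (n = 4) received a non-targeting hairpin and 700 µM aspartate, NoASP shSCR (n = 3) the same hairpin without added aspartate, ASP shGRIN2D (n = 3) a hairpin against *Grin2d* with aspartate, and ASP shDHPS (n = 4) a hairpin against *Dhps* with aspartate. RNA was taken from the cytosolic lysate after cycloheximide washing, so the values describe cytoplasmic polyadenylated mRNA and neither protein nor transport.

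The carriers divide by membrane and by cargo. At the plasma membrane, the high-affinity members of the Slc1a family bring in aspartate and glutamate together with sodium, whereas *Slc1a4* and *Slc1a5* encode exchangers of neutral amino acids such as alanine, serine and, for *Slc1a5*, glutamine, so that in most cells they carry little acidic amino acid. In the inner mitochondrial membrane, *Slc25a12* (aralar) and *Slc25a13* (citrin) send aspartate out of the matrix in exchange for glutamate and a proton, a step of the malate-aspartate shuttle, while *Slc25a22* brings glutamate into the matrix together with a proton. Aspartate made in mitochondria reaches the cytosol through the aralar and citrin carriers, where it serves the synthesis of nucleotides and proteins.

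The study placed the transcription factor CREB downstream of aspartate, and amino acid carriers are classical targets of the stress factor ATF4, so the promoters of the members were searched for the binding motifs of both. The promoter windows reach from 250 bases before to 50 bases after the start of each gene in RefSeq (GRCm38.p6), and 7 of the 8 members had one. The full CREB motif TGACGTCA was in none of them and in 1.79% of all 32851 promoters. Its short form TGACG, searched on both strands, was in *Slc1a3*, *Slc1a4* and *Slc25a13* and in 20.8% of all promoters, and the ATF4 motif TGATGNAA was in *Slc1a4* alone and in 3.97% of all promoters. The lines below give 30 bases around each motif in the members that had reads, written 5′ to 3′ on the strand of the gene (the minus strand for both), with the motif in capitals. They are shown because they are the only such letters in the windows of the measured members.
Slc1a4, ATF4 motif on the opposite strand, chr11:20332699-20332728: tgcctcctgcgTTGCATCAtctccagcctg
Slc1a4, short CREB motif on the opposite strand, chr11:20332830-20332859: ggacctgggaaaCGTCAgggaggtggggaa
Slc25a13, short CREB motif, chr6:6217169-6217198: cagccaatgggcTGACGgcacccgcatgac
The ATF4 motif of *Slc1a4* lies over the start of the gene. The short CREB motif of *Slc25a13* lies just before the start used for its window. That start is inside the gene as RefSeq places it (chr6:6041218-6217304). A match of letters is a description of the window and not a binding site.

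The libraries held 12731123 to 23231378 counts, and levels are given as CPM, counts relative to the TMM-scaled size of each library. *Dhps* fell from 19.4 ± 2.28 CPM (SD, n = 4) in ASP shSCR to 6.93 ± 1.74 CPM (SD, n = 4) in ASP shDHPS (log2 fold change −1.48, edgeR quasi-likelihood adjusted p = 8.31e-06). In ASP shGRIN2D, *Grin2d* was at 2.46 ± 0.590 CPM (SD, n = 3), below every ASP shSCR library (3.60 ± 0.423 CPM, SD, n = 4), but the difference did not pass the test (log2 fold change −0.55, edgeR quasi-likelihood adjusted p = 0.516). The 4 epithelial markers summed to 3007 to 4051 CPM in every library, while of the markers of astrocytes, neurons and leukocytes 2 of 4 each had a row and summed to at most 0.702 CPM. *Pdgfra*, a fibroblast marker, stood at 22.7 to 40.7 CPM with *Dcn* at no more than 1 count per library. The summed epithelial markers were lower in ASP shGRIN2D (3007 to 3239 CPM) and ASP shDHPS (3126 to 3661 CPM) than in both shSCR groups (3883 to 4051 CPM), and their part in the results was not tested. Of the 4 markers, *Cdh1* did not follow, with log2 fold changes against ASP shSCR of −0.06 in ASP shGRIN2D and 0.04 in ASP shDHPS. In bulk RNA, fewer cells of a type and less RNA per cell cannot be told apart. Replicate 2 of both shSCR groups stood apart from the other libraries of these groups on the first principal component (−25.8 and −19.7 against −8.66 to 6.28), and results that rest on them are given with and without them.

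Among the plasma membrane carriers, the neutral exchangers were the abundant ones, and the high-affinity glutamate carrier was at the limit of detection. *Slc1a2* (ENSMUSG00000005089), the main glutamate carrier of astrocytes, had 8 counts in total, spread over 4 of the 14 libraries with at most 3 in any of them. A count of 0 allows up to 0.129 to 0.236 CPM in these libraries, so no fold change is given for it. The gene also overlaps *Gm13872* on the opposite strand, and the kit keeps the strand.

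*Slc1a5* (ENSMUSG00000001918) had the highest level of the members once levels were divided by transcript length. Per kilobase of the longest protein-coding transcript it stood at a mean of 24.4 CPM over the 14 libraries, with a range of 15.3 to 28.7. *Slc1a4* (ENSMUSG00000020142) followed at 15.2 CPM per kilobase (11.5 to 17.9), and the citrin gene *Slc25a13* (ENSMUSG00000015112) came next at 13.9 (10.5 to 15.8). By their ranges these neighbours were not separated: those of *Slc1a4* and *Slc25a13* overlapped for most of their length, and that of *Slc1a5* touched both. Within libraries, the ratio of *Slc1a5* to *Slc1a4* was below 1 in ASP shSCR replicate 2 alone (0.952). *Slc25a22* (ENSMUSG00000019082) stood at 8.73 CPM per kilobase (5.51 to 10.8), and *Slc25a12* (ENSMUSG00000027010), the aralar gene, was lowest at 4.82 (4.10 to 5.70). The place of *Slc25a22* depended on the transcript model, since with the median length of its 14 protein-coding transcripts (583 bases against 2811 for the longest) its level was 42.1 CPM per kilobase and the highest of the 5. All 5 genes were in the upper part of the table, between the percentile 64.7 (*Slc25a22*) and the percentile 82.4 (*Slc1a5*) of mean CPM among all genes.

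**Figure D1:**
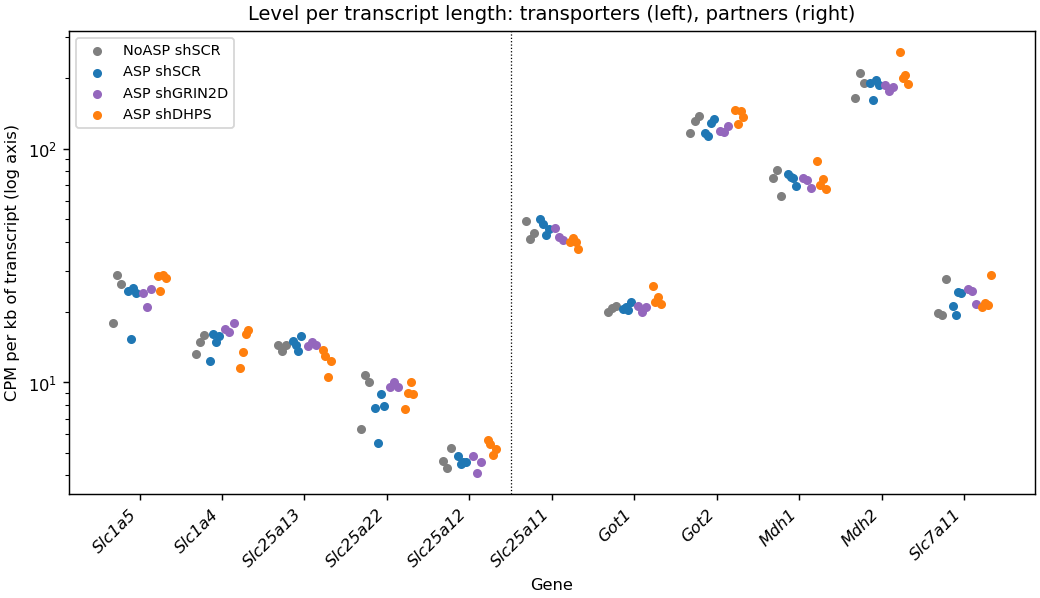
Level of the 5 measured transporters (left of the dotted line) and of 6 partner genes (right), as CPM per kilobase of the longest protein-coding transcript on a log axis, 1 point per library, coloured by group. The transporters lie between 4.10 and 28.7, while *Slc25a11*, *Got2*, *Mdh1* and *Mdh2* lie above all of them.

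The partners that share the malate-aspartate shuttle with aralar and citrin were more abundant than the carriers. The oxoglutarate carrier *Slc25a11* stood at a mean of 43.3 CPM per kilobase, the mitochondrial aspartate aminotransferase *Got2* at 128, its cytosolic counterpart *Got1* at 21.5, and the malate dehydrogenases *Mdh1* and *Mdh2* at 73.8 and 193. *Slc7a11*, which exports glutamate in exchange for cystine, was at 22.9 CPM per kilobase, close to *Slc1a5* by the longest transcript. With the median transcript length *Slc7a11* was at 36.2 and *Slc1a5* at 24.4. By that length *Slc25a11*, *Mdh1* and *Mdh2* were at 96.3, 117 and 434 CPM per kilobase.

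The members differed in how much they varied between libraries. The coefficient of variation of CPM over the 14 libraries was 17.4% for *Slc25a22* and 16.4% for *Slc1a5*, against a median of 12.1% over the 10224 genes whose mean reached 5 CPM. *Slc1a4* was near that median at 12.4%, and *Slc25a12* and *Slc25a13* were each at 9.34%. *Slc1a5* and *Slc25a22* shared their lowest libraries, which were replicate 2 of ASP shSCR and replicate 2 of NoASP shSCR. *Slc1a5* was at 42.3 and 49.7 CPM there, against 57.9 to 79.4 in the other 12 libraries, and *Slc25a22* at 15.5 and 17.8 CPM against 21.7 to 30.3. *Slc1a4*, *Slc25a12* and *Slc25a13* had values in these 2 libraries that fell inside the range of the other 12. Without the 2 libraries the coefficient of variation was 9.23% for *Slc1a5* and 10.9% for *Slc25a22*, against a median of 11.2% over all these genes.

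**Figure D2:**
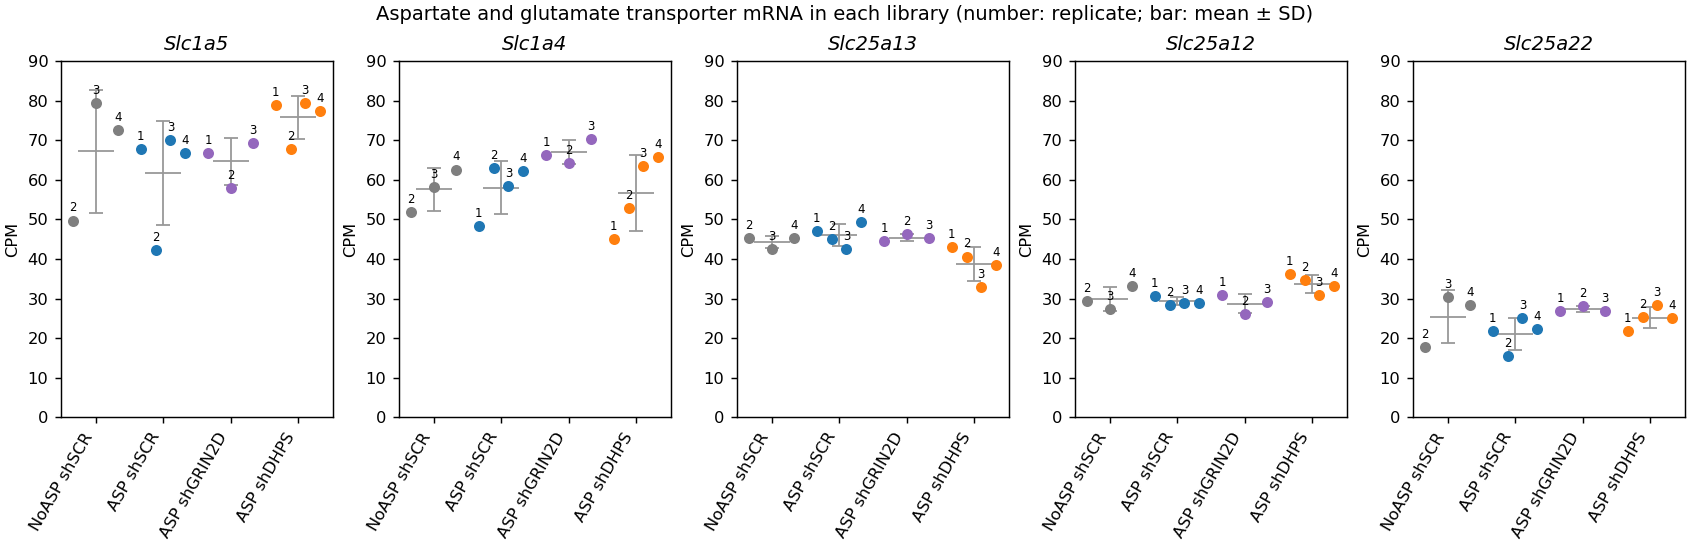
CPM of the 5 transporters in each of the 14 libraries, with the replicate number beside each point and the mean ± SD of each group as grey bars, on a linear axis from 0. *Slc1a5* and *Slc25a22* are lowest in replicate 2 of both shSCR groups, *Slc25a13* is lower and *Slc25a12* higher in most ASP shDHPS libraries.

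No transporter was called for added aspartate. In the fit of all 14 libraries without pairing, the 95% interval of each of the 5 included 0. Within the replicate pairs, *Slc1a5* and *Slc25a22* were lower with aspartate, as given below. *Slc1a5* was at 67.9, 42.3, 70.0 and 66.8 CPM in ASP shSCR and at 49.7, 79.4 and 72.6 CPM in NoASP shSCR. *Slc1a4* was at 48.4, 63.1, 58.6 and 62.1 CPM with aspartate and at 51.9, 58.3 and 62.6 CPM without. Both genes overlapped between the groups, with replicate 2 low for *Slc1a5* in either group. The log2 fold change was −0.12 for *Slc1a5* (SE 0.15, 95% interval −0.44 to 0.19) and 0.01 for *Slc1a4* (SE 0.12, −0.24 to 0.26).

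The mitochondrial carriers were not called in this comparison either. *Slc25a12* was at 30.8, 28.5, 29.0 and 29.0 CPM with aspartate and at 29.4, 27.3 and 33.3 CPM without (log2 fold change −0.03, SE 0.10). *Slc25a13* was at 47.1, 45.2, 42.6 and 49.3 CPM with aspartate and at 45.3, 42.6 and 45.2 CPM without (log2 fold change 0.05, SE 0.10). Neither carrier of the shuttle separated the groups in any direction. *Slc25a22* was at 21.8, 15.5, 25.0 and 22.3 CPM with aspartate and at 17.8, 30.3 and 28.4 CPM without, and its log2 fold change of −0.27 (SE 0.16, 95% interval −0.60 to 0.07) was the farthest from 0 of the 5. Without replicate 2 of both groups it was −0.35 (SE 0.12), again with an edgeR quasi-likelihood adjusted p of 1, and with single libraries left out it ran from −0.47 (without NoASP shSCR replicate 2) to −0.14 (without ASP shSCR replicate 2) and −0.12 (without NoASP shSCR replicate 3). Replicate numbers were taken to pair these groups, and within the pairs numbered 2, 3 and 4 both *Slc1a5* and *Slc25a22* were lower with aspartate in 3 of 3. With the replicate number as a block in the shSCR libraries alone, a fit added after the data had been seen, the log2 fold change was −0.18 for *Slc1a5* (SE 0.08, edgeR adjusted p = 0.904) and −0.27 for *Slc25a22* (SE 0.10, edgeR adjusted p = 0.596), so that 2 members were under an unadjusted p of 0.05 and 0 were called. In all, 0 of the 5 members were called by the quasi-likelihood test of edgeR (called where adjusted p was under 0.05 after Benjamini-Hochberg over 19525 genes, here 1 for each). In the fit of all 14 libraries without the block, 0 were under an unadjusted p of 0.05, and DESeq2 called 0. The background was as low: 0% of all genes were called, 424 of them had an unadjusted p under 0.05, and DESeq2 called 0. None of the 5 had groups without overlap, against 1.91% of the 10224 genes whose mean reached 5 CPM. Without replicate 2 of both groups, *Slc1a5* and *Slc25a22* no longer overlapped. *Slc1a5* was then at 66.8 to 70.0 CPM with aspartate and at 72.6 and 79.4 CPM without. *Slc25a22* was at 21.8 to 25.0 CPM with aspartate and at 28.4 and 30.3 CPM without. The other members still overlapped, and the share of all genes was not counted for these libraries. The median log2 fold change of the 5 was −0.03, beside 0.00 over all genes. A difference inside the intervals above was not detectable with these libraries, and a larger difference could go uncalled after adjustment over all genes. The study's methods name separate spheroid pellets for its polysome samples, whose input gave this RNA, and the labels do not say whether their cultures were separate, so p-values measure the spread between these samples.

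The hairpin against *Grin2d* was set against the non-targeting hairpin, both with aspartate, to ask whether the carriers depend on the receptor. *Slc1a4*, the exchanger of alanine, serine and cysteine, was at 66.3, 64.3 and 70.3 CPM in ASP shGRIN2D, above each of the 4 ASP shSCR libraries given above. *Slc25a22*, which takes glutamate into mitochondria, was at 27.0, 28.2 and 26.8 CPM, also above every ASP shSCR library. The other 3 overlapped: *Slc1a5* was at 66.8, 57.9 and 69.2 CPM, *Slc25a12* at 30.9, 26.1 and 29.1 CPM, and *Slc25a13* at 44.5, 46.3 and 45.3 CPM.

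For *Slc25a22* the log2 fold change was 0.37 (SE 0.16, 95% interval 0.04 to 0.70), which did not pass the edgeR quasi-likelihood test after adjustment (adjusted p = 0.411). It was 0.24 (SE 0.11, adjusted p = 0.476) when replicate 2 of both shSCR groups was left out, the value moving by over 1.5 times. *Slc1a4* had a log2 fold change of 0.21 (SE 0.12, 95% interval −0.04 to 0.46, edgeR quasi-likelihood adjusted p = 0.582), and of 0.13 without ASP shSCR replicate 1. *Slc1a5* (0.07, SE 0.15), *Slc25a12* (−0.03, SE 0.10) and *Slc25a13* (−0.02, SE 0.10) had log2 fold changes within 1 SE of 0. Thus 0 of 5 members were called by the edgeR quasi-likelihood test, 1 had an unadjusted p under 0.05 and DESeq2 called 0, against 1.16% of all genes called. Of the 19525 genes, 2040 had an unadjusted p under 0.05, and DESeq2 called 442. The 2 members without overlap between the groups stand beside a background of 17.1%. The median log2 fold change of the 5 was 0.07, beside 0.00 over all genes. This comparison, that of *Dhps* and that of aspartate share the ASP shSCR libraries, so a low or high library there moves the 3 of them together.

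With the hairpin against *Dhps*, the 2 shuttle carriers had differences on opposite sides of 0. *Slc25a12* was at 36.2, 34.6, 30.9 and 33.1 CPM in ASP shDHPS, every library above the 30.8 CPM that was the highest of ASP shSCR, although only just for replicate 3. *Slc25a13* was at 43.1, 40.6, 32.9 and 38.5 CPM, lower than in ASP shSCR in 3 of 4 libraries and inside its range in replicate 1. *Slc1a5* was at 78.9, 67.8, 79.3 and 77.3 CPM, above every ASP shSCR library in 3 of 4. The remaining members overlapped with the control: *Slc1a4* was at 45.1, 52.8, 63.4 and 65.8 CPM and *Slc25a22* at 21.7, 25.4, 28.4 and 25.1 CPM.

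The citrin gene had the smallest p-value of the members, with a log2 fold change of −0.25 (SE 0.09, 95% interval −0.44 to −0.06, edgeR quasi-likelihood adjusted p = 0.141). The aralar gene had 0.20 (SE 0.10, 95% interval 0.00 to 0.40, edgeR adjusted p = 0.249). Both values stayed in place without replicate 2 of both shSCR groups, at −0.25 for *Slc25a13* (adjusted p = 0.226) and 0.19 for *Slc25a12* (adjusted p = 0.396). *Slc1a5* had 0.30 (SE 0.14, 95% interval 0.00 to 0.59, adjusted p = 0.251), and 0.16 (SE 0.09, adjusted p = 0.440) without these libraries. *Slc25a22* had 0.25 (SE 0.15, adjusted p = 0.369), and 0.13 (SE 0.10) without them. The values of *Slc1a5* and *Slc25a22* thus moved by over 1.5 times with these libraries. *Slc1a4* had −0.03 (SE 0.11). In all, 0 of 5 members were called by the edgeR quasi-likelihood test, 3 had an unadjusted p under 0.05 and DESeq2 called 0, with 4.22% of all genes called. Of the 19525 genes, 3769 had an unadjusted p under 0.05, and DESeq2 called 1379. The median log2 fold change of the 5 was 0.20, beside a median of 0.00 over all genes. *Slc25a12* was the 1 member without overlap, against a background of 16.7%.

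**Figure D3:**
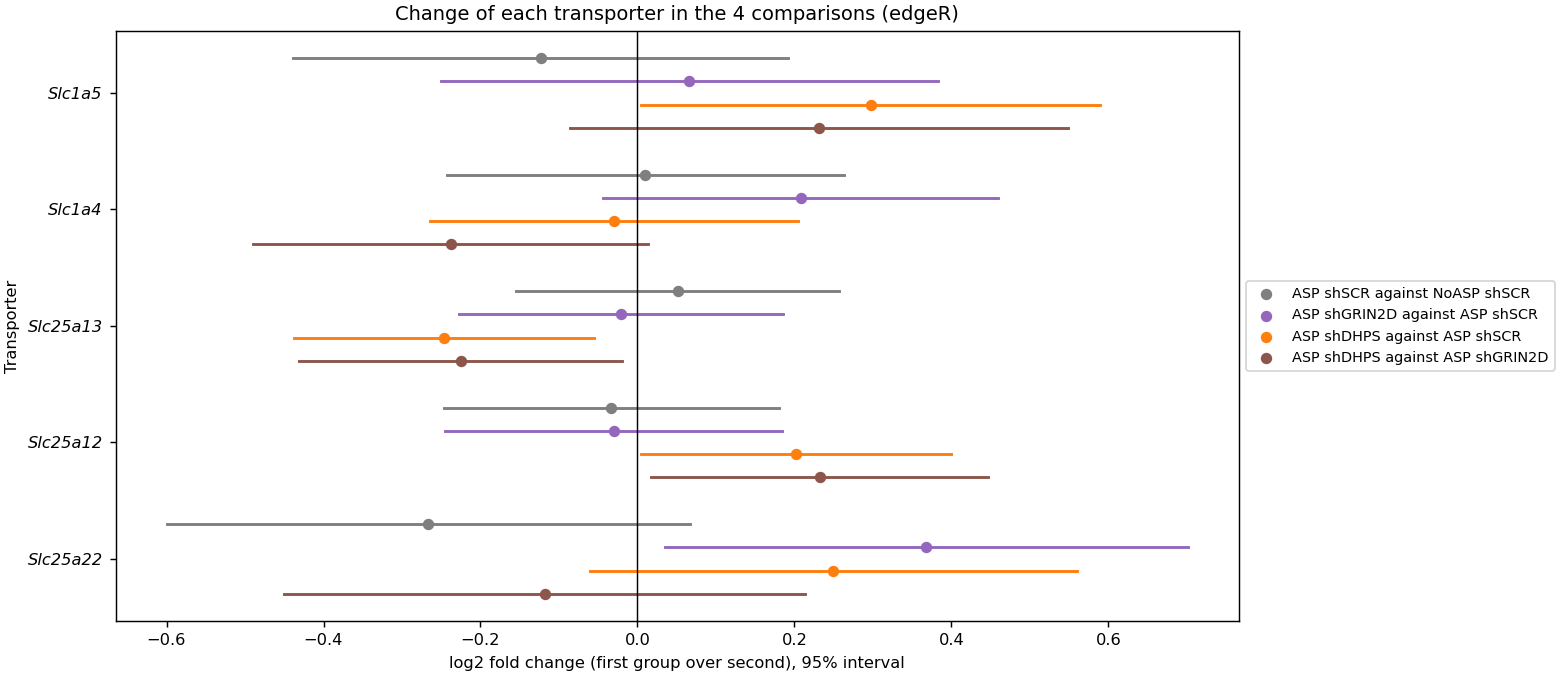
Log2 fold change of each transporter in the 4 comparisons (points) with its 95% interval (lines) from edgeR, first group over second. *Slc25a13* lies below 0 and *Slc25a12* above 0 in both comparisons of ASP shDHPS, and no member passed an adjusted p of 0.05 in any comparison.

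Both hairpins were also compared with each other, a test that does not use the ASP shSCR libraries in the contrast. *Slc25a12* was higher in each of the 4 ASP shDHPS libraries than in the 3 of ASP shGRIN2D, again narrowly, with a log2 fold change of 0.23 (SE 0.10, 95% interval 0.02 to 0.45, edgeR quasi-likelihood adjusted p = 0.293). *Slc25a13* was lower in all 4 than in the 3 others, with a log2 fold change of −0.23 (SE 0.10, 95% interval −0.43 to −0.02, adjusted p = 0.285). The neutral exchangers also pointed in opposite directions, *Slc1a4* at −0.24 (SE 0.12, adjusted p = 0.367, and −0.14 without ASP shDHPS replicate 1) and *Slc1a5* at 0.23 (SE 0.15, adjusted p = 0.496), with overlapping libraries. *Slc25a22* was at −0.12 (SE 0.16). The edgeR quasi-likelihood test called 0 of 5, 2 had an unadjusted p under 0.05 and DESeq2 called 0, beside 2.82% of all genes called. Of the 19525 genes, 2898 had an unadjusted p under 0.05, and DESeq2 called 933. The 2 shuttle carriers had groups without overlap, against 21.5% of genes, and the median log2 fold change of the 5 was −0.12, beside 0.01 over all genes.

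Since aralar and citrin catalyse the same exchange, the balance between their mRNAs was taken within each library as the ratio of their CPM per kilobase. Citrin mRNA exceeded aralar mRNA in all 14 libraries. In ASP shDHPS the ratio was 2.42, 2.39, 2.16 and 2.37, with a mean of 2.34 ± 0.117 (SD, n = 4). It was 3.12, 3.23, 2.99 and 3.46 in ASP shSCR (3.20 ± 0.200, SD, n = 4), 3.14, 3.17 and 2.76 in NoASP shSCR (3.03 ± 0.229, SD, n = 3), and 2.93, 3.61 and 3.16 in ASP shGRIN2D (3.23 ± 0.346, SD, n = 3). All 4 ASP shDHPS libraries were thus below each of the 10 others, although the nearest of these (2.76) was closer to the highest ASP shDHPS library (2.42) than the extremes of any other group were to each other. This ratio was chosen after the values of both genes had been seen, so no test is given. Among all pairs of these 10224 genes, 17.3% had ratios without overlap between ASP shDHPS and ASP shSCR, and 5.71% between ASP shDHPS and the 10 other libraries.

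The 2 neutral exchangers had a looser balance. The ratio of *Slc1a5* to *Slc1a4* per kilobase had a mean of 1.94 ± 0.369 (SD, n = 4) in ASP shDHPS, with replicate 1 highest at 2.48. It was 1.54 ± 0.438 (SD, n = 4) in ASP shSCR, where replicate 2 was the single library of the 14 below 1, at 0.952. NoASP shSCR had 1.65 ± 0.286 (SD, n = 3) and ASP shGRIN2D 1.37 ± 0.0800 (SD, n = 3). The groups overlapped apart from ASP shDHPS and ASP shGRIN2D, whose ranges were 1.67 to 2.48 and 1.28 to 1.43. The share of all gene pairs without overlap was not counted for these 2 groups. Among single genes whose mean reached 5 CPM, 21.5% had no overlap between them.

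**Figure D4:**
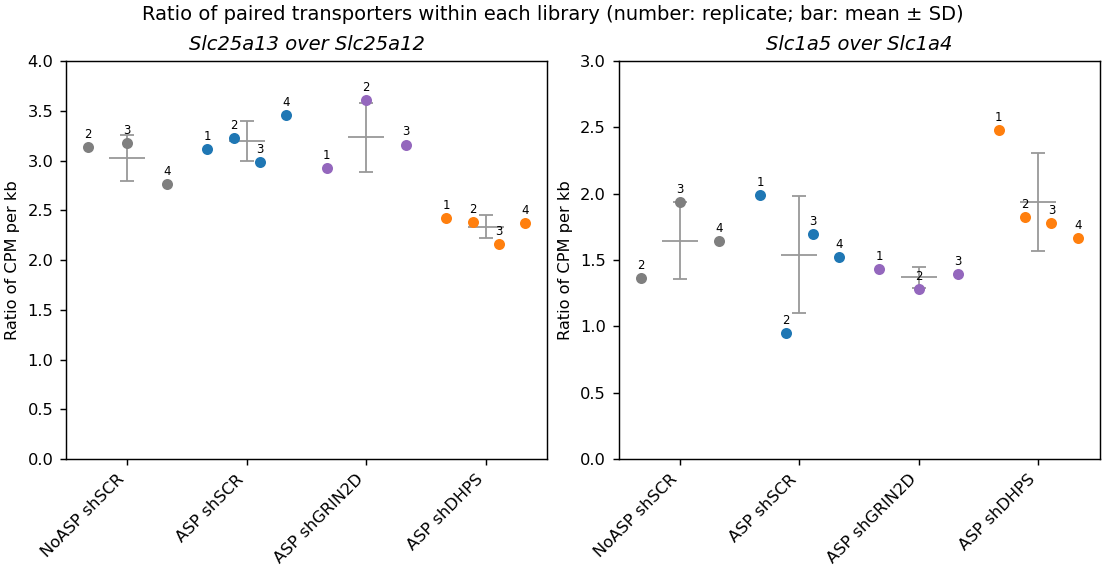
Ratio of CPM per kilobase within each library for citrin over aralar (left) and for *Slc1a5* over *Slc1a4* (right), with the replicate number beside each point and the mean ± SD of each group as grey bars. On the left the 4 ASP shDHPS libraries lie between 2.16 and 2.42, below the other 10.

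Among other carriers of aspartate and glutamate 1 gene was called. *Slc1a7*, a glutamate carrier of the retina, had 27 counts in total and at most 7 in a library, and *Slc1a6* was not analysed here. No member of either list of other carriers was called for aspartate or for the *Grin2d* hairpin by the edgeR quasi-likelihood test or by DESeq2, with 0 and 1 of the 7 measured genes of the longer list under an unadjusted p of 0.05. In ASP shDHPS, 1 of these 7 rose, where 4.22% of all genes were called. *Slc17a5*, the lysosomal sialic acid exporter that can also move aspartate and glutamate into vesicles, was at 23.5, 22.8, 22.1 and 20.9 CPM against 15.7, 17.5, 18.5 and 18.8 CPM in ASP shSCR (log2 fold change 0.34, SE 0.10, edgeR quasi-likelihood adjusted p = 0.0457). The groups did not overlap, but the call was held in 5 of 15 alternatives only and lost without ASP shSCR replicate 1, 2, 3 or 4 and without ASP shDHPS replicate 1, 2 or 3 (edgeR adjusted p between 0.0597 and 0.133). The median log2 fold change of the 7 genes was 0.09, beside 0.00 over all genes. *Slc7a11* (a mean of 205 CPM in ASP shSCR and 215 CPM in ASP shDHPS, log2 fold change 0.06) and *Ucp2*, a mitochondrial carrier that exports aspartate and other acids (642 and 683 CPM, log2 fold change 0.09), gave no call there. In ASP shGRIN2D *Ucp2* was at 813 ± 83.8 CPM (SD, n = 3), for which the log2 fold change was 0.34 (SE 0.11, edgeR adjusted p = 0.154).

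The shuttle partners gave no call. The edgeR quasi-likelihood test called 0 of the 5 in each of the 4 comparisons, with 0, 0, 3 and 2 under an unadjusted p of 0.05 for aspartate, the *Grin2d* hairpin, the *Dhps* hairpin and the comparison of both hairpins. DESeq2 called 1, *Slc25a11*, in ASP shDHPS against ASP shSCR and 0 elsewhere. *Slc25a11* had the log2 fold change −0.23 there (SE 0.08, edgeR quasi-likelihood adjusted p = 0.127), while *Got2* had 0.18 (SE 0.08), *Mdh2* 0.22 (SE 0.10) and *Mdh1* 0.01 (SE 0.10). The median of the 5 was 0.15 in this comparison, beside 0.00 over all genes.

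Of the 10 enzymes that make or use glutamate, 1 fell with the *Grin2d* hairpin, where 1.16% of all genes were called. *Glul*, glutamine synthetase, which joins glutamate and ammonia, was at 23.5, 23.1 and 22.4 CPM in ASP shGRIN2D and at 32.5, 39.6, 31.5 and 42.2 CPM in ASP shSCR. It fell by 0.66 on the log2 scale (SE 0.13, edgeR quasi-likelihood adjusted p = 0.00732), and DESeq2 called it too, while without ASP shGRIN2D replicate 3 the edgeR adjusted p was 0.0591. In ASP shDHPS it was at 30.4 to 32.7 CPM, above ASP shGRIN2D and overlapping the lower ASP shSCR libraries (log2 fold change −0.21, adjusted p = 0.329). No enzyme of the list was called in ASP shDHPS by the edgeR quasi-likelihood test, with 2 under an unadjusted p of 0.05, whereas DESeq2 called 2 as higher, *Gpt2* (log2 fold change 0.43, edgeR adjusted p = 0.0864) and *Asns* (0.36, edgeR adjusted p = 0.0702). These encode the mitochondrial alanine aminotransferase and asparagine synthetase, which uses aspartate, and are named because DESeq2 called them. The abundant enzymes *Psat1* and *Glud1* had log2 fold changes of 0.19 and −0.03 in this comparison, and the median of the 10 was 0.06. For aspartate, 0 of 10 were called and 0 were under an unadjusted p of 0.05, with DESeq2 calling 0.

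The list of neutral amino acid carriers and partner chains that work beside *Slc1a4* and *Slc1a5* had 3 of 6 measured members called with the *Dhps* hairpin, beside 4.22% of all genes. *Slc7a6*, a light chain that exchanges basic for neutral amino acids, was at 43.0 to 50.7 CPM against 24.1 to 38.0 CPM in ASP shSCR and rose by a log2 fold change of 0.49 (SE 0.12, edgeR quasi-likelihood adjusted p = 0.0236). *Slc3a2*, the heavy chain that such light chains need, rose by 0.31 (SE 0.09, adjusted p = 0.0420). *Slc43a2*, a carrier of large neutral amino acids, fell from 66.9, 120, 65.4 and 72.3 CPM to 29.4, 55.3, 37.2 and 47.4 CPM, a log2 fold change of −0.94 (SE 0.21, edgeR adjusted p = 0.0122). Its control value was highest in replicate 2, which was low for *Slc1a5*. The call of *Slc43a2* was lost without ASP shDHPS replicate 3 (edgeR adjusted p = 0.0511). That of *Slc7a6* was lost without ASP shSCR replicate 2 or 4 or ASP shDHPS replicate 1 or 3 (adjusted p between 0.0524 and 0.0782), and that of *Slc3a2* in 7 of 15 alternatives, without ASP shSCR replicate 1, 2 or 4 or ASP shDHPS replicate 3 or 4 among them (adjusted p between 0.0890 and 0.117). *Slc38a2*, *Slc7a5* and *Slc38a1*, the most abundant others, had log2 fold changes of 0.17, 0.15 and −0.04, and the median of the 6 was 0.16. With the *Grin2d* hairpin and with aspartate 0 of 6 were called by the edgeR quasi-likelihood test and by DESeq2, with 1 and 0 under an unadjusted p of 0.05.

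Among the 4 genes for proteins that hold back or assist the Slc1a carriers, 1 was called in ASP shDHPS against ASP shSCR, beside 4.22% of all genes. *Arl6ip5*, which retains the neuronal glutamate carrier in the endoplasmic reticulum, rose in ASP shDHPS from 126 ± 5.16 to 152 ± 6.61 CPM (SD, n = 4 each, log2 fold change 0.27, edgeR quasi-likelihood adjusted p = 0.0485), a call held in 4 of 15 alternatives and lost without any 1 of the ASP shSCR libraries or ASP shDHPS replicate 1, 2 or 3 (adjusted p between 0.0674 and 0.150). *Arl6ip1*, its binding partner, was at 427 CPM in ASP shDHPS and 280 CPM in ASP shGRIN2D and was called higher between these groups (log2 fold change 0.61, SE 0.09, edgeR adjusted p = 0.000270) and in all 13 alternatives. Against ASP shSCR its log2 fold changes were 0.28 (adjusted p = 0.0512) and −0.33 (adjusted p = 0.0836), and DESeq2 called both. Of the 4 genes, 0 were called by the edgeR quasi-likelihood test for aspartate or for the *Grin2d* hairpin, with 0 and 2 under an unadjusted p of 0.05. Their median was 0.26 in ASP shDHPS.

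The ATF4 targets included the called list gene with the largest fold change against ASP shSCR, and *Slc1a4*, the member with the ATF4 motif printed above, was not called beside them. In ASP shDHPS 3 of the 10 genes of this list, which includes *Atf4*, rose against ASP shSCR and 0 fell, beside 4.22% of all genes called. *Chac1*, which degrades glutathione, was at 22.7, 19.0, 23.6 and 19.2 CPM against 10.3, 11.0, 8.67 and 8.72 CPM (log2 fold change 1.12, SE 0.14, edgeR quasi-likelihood adjusted p = 6.40e-05), and was called in all 15 alternatives. *Ddit3*, a stress transcription factor, was at 22.2, 21.9, 29.2 and 21.4 CPM against 9.14, 21.7, 13.1 and 11.9 CPM, overlapping through replicate 2 of ASP shSCR, and rose by a log2 fold change of 0.76 (SE 0.19, edgeR adjusted p = 0.0217). Its call was lost without ASP shSCR replicate 1 or 4 or ASP shDHPS replicate 3 (adjusted p between 0.0634 and 0.0971). *Slc3a2*, named above, was the other target called, and the median of the 10 was 0.21. *Atf4* itself had 0.23 (SE 0.10, adjusted p = 0.182), and *Slc7a11* 0.06. *Slc1a4* had −0.03 in the same comparison and *Slc1a5*, whose promoter was not searched, 0.30, neither called. *Chac1* (1.13) and *Ddit3* (0.78) were also called in ASP shDHPS against ASP shGRIN2D (the latter in 6 of 13 alternatives, and not without any 1 of the ASP shGRIN2D libraries or ASP shDHPS replicate 1, 2 or 3, edgeR adjusted p between 0.0562 and 0.208), whereas 0 of 10 were called with the *Grin2d* hairpin or with aspartate by the edgeR quasi-likelihood test or DESeq2, with 1 and 0 under an unadjusted p of 0.05.

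**Figure D5:**
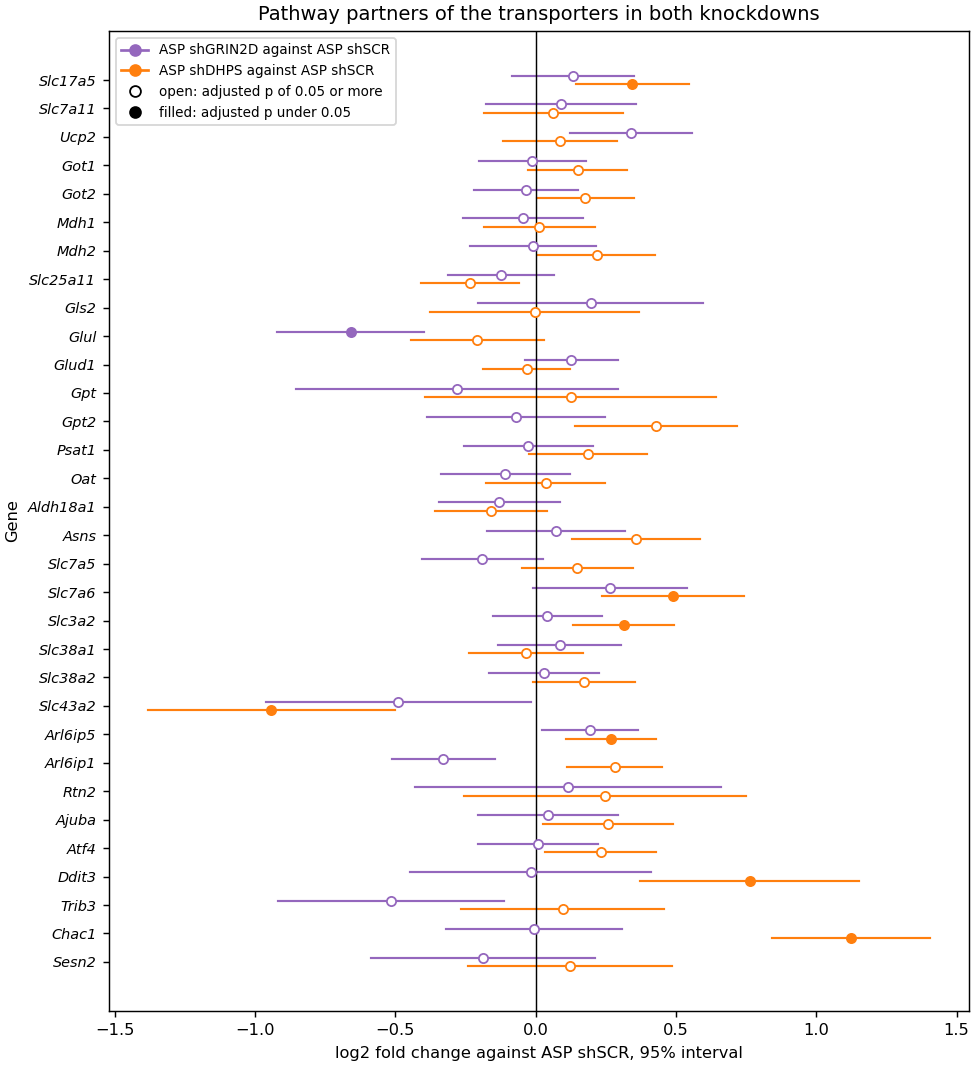
Log2 fold change against ASP shSCR of 32 pathway genes whose mean reached 1 CPM, for ASP shGRIN2D (purple) and ASP shDHPS (orange), with 95% intervals and filled points where the edgeR adjusted p was under 0.05. *Glul* is the filled purple point, and *Chac1* (1.12) and *Slc43a2* (−0.94) are the outermost orange ones.

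Genes whose pattern was most like each member were found by Pearson's r of log2 CPM over the 14 libraries, among 10224 genes, as a description in which the points share library depth and group. *Slc1a5* was closest to *Bop1* (r = 0.970), which acts in ribosome assembly, the proteasome activator *Psme3* (0.964) and the mitochondrial ribosomal gene *Mrps18b* (0.961). *Slc25a22* was closest to *Klhdc3* (0.954), *Klhdc4* (0.950) and the phosphatase *Ppp5c* (0.930). Without replicate 2 of both shSCR groups (12 libraries) *Bop1*, *Psme3* and *Mrps18b* had r = 0.863, 0.843 and 0.876 with *Slc1a5*, and *Klhdc3*, *Klhdc4* and *Ppp5c* had 0.827, 0.865 and 0.742 with *Slc25a22*. These likenesses were thus lower without the low libraries. *Slc25a13* was closest to *Spred1* (0.918), an inhibitor of Ras signaling, *Cdca7l* (0.894) and *Rhobtb3* (0.888). *Slc1a4* was closest to the zinc finger gene *Zbtb43* (0.895), the exporter *Abcc4* (0.877) and the repressor *Bcl6* (0.871). *Slc25a12* had the lowest best values, with the nucleoporin *Ndc1* (0.833), *Lbh* (0.828) and *Clic4* (0.821).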

How the data were processed

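Libraries were made from polyadenylated RNA with a stranded kit. The authors trimmed reads (Trim Galore 0.6.6, FastQC 0.11.9), mapped them to GRCm39 (STAR 2.6.1) and quantified genes with Salmon 1.4.0. They deposited Salmon counts rounded to whole numbers, having dropped genes not expressed in 2 or more replicates of any condition (DESeq2 1.34.0). Salmon shares reads between similar transcripts, and the filter can remove low genes.

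From these counts, all 14 libraries were fitted by group with edgeR 4.0.16 (TMM, quasi-likelihood test, Benjamini-Hochberg over 19525 genes, called at an adjusted p under 0.05) in R 4.3.3, tested on simulated data. Groups were taken from the labels. CPM used the TMM factors (0.984 to 1.02), log2 CPM a prior count of 2, and lengths GENCODE M21 transcripts of GRCm38. Genes named are the members, the called genes and up to 3 abundant genes of each list, and the 3 genes most like each member. The values of 1 list gene are not reported here. The members and lists were chosen with earlier results of these data known. Replicate numbers were taken to pair the 2 shSCR groups (correlations of deviations 0.514, 0.287 and 0.203). Alternatives were DESeq2 1.42.0, other scaling, a count filter, a replicate block and left-out libraries.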

Additional observations from a re-analysis of the deposited data

Results flagged for a closer look

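*Slc1a5* in ASP shSCR had 1 library far from the others. Replicate 2 was at 42.3 CPM and the nearest of the other 3 at 66.8 CPM, a gap of 0.883 of the range of the group, above the critical value of Dixon's test for 4 samples. Groups of 4 were examined for each of the 5 measured members, 10 in all, and chance alone flags about 1 in 20. The same library was the lowest of the 14 for *Slc25a22* and stood apart on the first principal component, and why was not tested.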

How the results depend on the processing

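Of 285 alternative fits of single transporters, 267 kept direction and call, 16 reversed a value near 0, 2 gained a call and 0 lost one, with a smallest adjusted p of 0.0160. The 2 gains came from the replicate block, which called 1 transporter in ASP shDHPS against ASP shSCR (*Slc1a5*, 0.32, edgeR adjusted p = 0.0160). It also called 1 in ASP shDHPS against ASP shGRIN2D (*Slc1a4*, −0.31, edgeR adjusted p = 0.0397). Numbers were not taken to pair these groups (correlations of deviations 0.040 to 0.258 and 0.005 to 0.231, and −0.117 to 0.042 for ASP shGRIN2D against ASP shSCR). The first 2 ranges overlap that of the 2 shSCR groups (0.203 to 0.514), so these values do not settle which groups are paired. In the 2 shSCR groups, taken as paired, the block changed no transporter call. Leaving out both shSCR libraries numbered 2, chosen after seeing the data, turned *Slc1a4* to −0.11 for aspartate and 0.017 for the *Dhps* hairpin, and *Slc1a5* to −0.079 for the *Grin2d* hairpin. Leaving out 1 library at a time gave −0.060 to 0.089 (*Slc1a4*), −0.30 to 0.021 (*Slc1a5*), −0.10 to 0.048 (*Slc25a12*) and −0.47 to −0.12 (*Slc25a22*) for aspartate, −0.078 to 0.14 (*Slc1a5*), −0.057 to 0.012 (*Slc25a13*) and −0.088 to 0.034 (*Slc25a12*) for the *Grin2d* hairpin, and −0.11 to 0.067 (*Slc1a4*) for the *Dhps* hairpin. The all-gene counts moved more: for aspartate 0 became 2 with the block, 64 with the block in the shSCR libraries alone and 1 without NoASP shSCR replicate 3, for the *Grin2d* hairpin 226 became 374 (2 groups alone), 611 (block), 442 (DESeq2) and 86 to 208 (1 library left out), for the *Dhps* hairpin 824 became 2150 (block), 1379 (DESeq2) and 412 to 894, and between both hairpins 550 became 1468 (block), 933 (DESeq2) and 209 to 577. The cause was not tested. With the median transcript length, *Slc25a22* moved from 8.73 to 42.1 CPM per kilobase. Groups of 3 or 4 leave unadjusted 95% intervals of about ± 0.2 to 0.3 on the log2 scale, so smaller differences were not detectable. Calls also had to pass adjustment over all genes, so larger differences could go uncalled too. An example is *Slc25a22* at 0.37 with the *Grin2d* hairpin (edgeR quasi-likelihood adjusted p = 0.411).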
